A study of Mus musculus with 24 samples.

Results

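The mitochondrial respiratory chain was followed here through 85 nuclear genes, taken by symbol from 23871 genes counted in PAPERCLIP: those whose names begin Ndufa, Ndufb, Ndufc, Ndufs, Ndufv, Uqcr, Cox4 to Cox8 or Atp5, together with Sdha, Sdhb, Sdhc and Sdhd, leaving out pseudogene symbols and the Ndufaf assembly factors. All 85 had an identifier among the 47069 listed in RNA-seq. Complex I was represented by 7 core and 29 accessory subunits, complex II by 4, complex III by 8, complex IV by 20 and ATP synthase (complex V) by 15. Atp5s and Atp5sl share the prefix only. Ndufa4, named as a complex I subunit, was placed in complex IV, where its protein is now known to sit. The rule uses gene names only.

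Complexes I and II feed electrons from NADH and succinate to ubiquinone, complex III passes them to cytochrome c, complex IV hands them to oxygen, and ATP synthase uses the proton gradient that complexes I, III and IV build. Most subunits are made from nuclear genes and imported, and a small set, not read by the nuclear gene symbols here, is made from mitochondrial DNA. In brain the chain supplies most of the ATP spent on ion pumping, while microglia stimulated with bacterial lipopolysaccharide (LPS) are known to shift their balance between glycolysis and respiration. Several complex IV subunits exist as alternative genes used in different tissues, such as Cox6a1 in most cells and Cox6a2 in heart and skeletal muscle.

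The series holds 24 mouse libraries. In cTag-PAPERCLIP the poly(A)-binding protein PABP carries a GFP tag only where Cre has acted (the Ctag-PABP allele), and mRNA crosslinked to it is pulled down through the tag, so that reads fall at mRNA 3′ ends and the tissue need not be sorted. Every tagged brain carried the Ctag-PABP allele and a Cre driver, so the cells read are those in which that driver is or was active. Whole brain of Cx3cr1-Cre; Ctag-PABP mice (microglia and related macrophages) gave 3 libraries after LPS, 3 after phosphate-buffered saline (PBS) and 2 without treatment. Cortex of Gfap-Cre (astrocytes), Camk2a-Cre (excitatory neurons) and Gad2-Cre (inhibitory neurons) mice, each with Ctag-PABP, gave 2 libraries per line. Ages of the tagged mice and the LPS dose of the PAPERCLIP mice are not given in the labels. The liver library, labelled CL57/B6J with no Cre or tag, is a single sample. RNA-seq covered microglia from adult wild-type C57BL/6 mice given 1 mg/kg LPS, or PBS, intraperitoneally on 4 consecutive days. These cells were taken with CD11b beads from 2 brains per tube (3 libraries each), and CD11b also marks other myeloid cells. Cortex of E18.5 Ptbp2-KO embryos gave 3 RNA-seq libraries with no wild-type library beside them.

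Depth ran between 115734 and 2005627 counts in PAPERCLIP, with the untreated Cx3cr1 libraries at 154959 and 133456, between 1250170 and 2133407 counts in microglial RNA-seq, and between 19446610 and 27415288 counts in Ptbp2-KO cortex. Marker genes went with the labels. All 12 microglia markers were higher in untreated Cx3cr1 libraries than in cortical ones, all 8 astrocyte markers were higher in Gfap libraries than in neurons, and all 9 inhibitory markers tested were lower in Camk2a than in Gad2 libraries, by the same test used for the members. Several of them, such as Tmem119 and Aif1, passed the filter on low counts only through the libraries where they are high. The lists also hold the driver genes Cx3cr1, Gfap and Gad2. These calls describe the libraries and are not read as support for the labels. Gfap libraries also carried oligodendrocyte genes, 0.136% and 0.979% of counts, against 0.0307% to 0.0356% in Camk2a and 0.0344% to 0.0398% in Gad2 libraries. Cx3cr1 PBS replicate 3 stood apart from its group, with pan-neuronal genes at 0.361% and hepatocyte genes at 0.206% of counts, against at most 0.0725% and 0.00113% in PBS replicates 1 and 2. In bulk libraries fewer cells of a type and less RNA per cell cannot be told apart.

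The 85 genes together took a different part of each library. Untreated Cx3cr1 libraries held 0.816% and 0.743% of their counts in these genes, Gfap libraries 1.92% and 1.89%, Camk2a libraries 1.52% and 1.54%, and Gad2 libraries 2.19% and 2.27%. The 4 cell types did not overlap, and the astrocyte line lay between the neuron lines. This order is that of the sum and did not hold in each complex. Complex IV held 0.631% and 0.594% in Gfap libraries, against 1.075% and 1.036% in Gad2 libraries. Complex III held 0.255% and 0.252% in Gfap libraries, against 0.170% and 0.203% in Gad2 libraries. Cx3cr1 libraries held 0.997%, 0.886% and 1.07% after LPS, against 0.836%, 0.796% and 1.02% after PBS, with PBS replicate 3 inside the LPS range. Taken by replicate number, each LPS library was above its PBS partner. Liver held 1.34% (exact Clopper-Pearson 95% interval 1.27% to 1.41%, which covers counting error only). In RNA-seq, where reads come from whole transcripts and longer mRNAs collect more of them, shares cannot be set against those of PAPERCLIP. There the LPS microglia held 0.425%, 0.450% and 0.370%, against 0.375%, 0.358% and 0.313% in PBS microglia, so that the lowest LPS library lay below the highest PBS library, and Ptbp2-KO cortex held 0.577%, 0.565% and 0.547%.

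**Figure D1:**
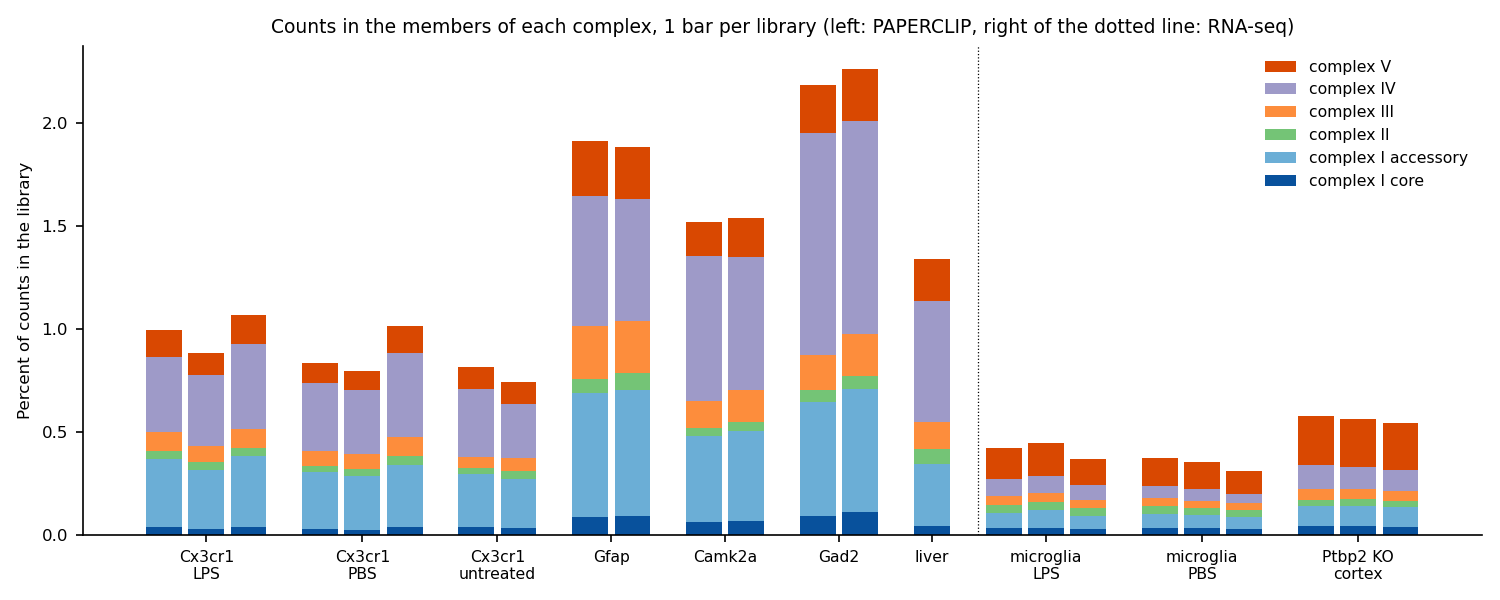
Percent of each library's counts (vertical axis) in the members of complexes I to V, stacked, with 1 bar per library and groups along the horizontal axis. Gad2 libraries reach 2.19% and 2.27%, untreated Cx3cr1 libraries 0.816% and 0.743%, and the RNA-seq libraries right of the dotted line are on a different scale of reading.

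Most respiratory chain mRNAs that differed were lower in Cx3cr1-tagged cells than in the cortical cell types. Of 85 members, 73 passed the filter on low counts, 38 were lower in the untreated Cx3cr1 libraries than in the mean of the Gfap, Camk2a and Gad2 libraries, and 5 were higher. Their median log2 difference was -1.07, against -0.48 over all 9421 genes tested, of which 49.8% were called at an adjusted p of 0.05 (edgeR), 2051 higher and 2636 lower. The Cx3cr1 libraries are whole brain and the others cortex, and the effects of cell type and of region cannot be told apart. In the same comparison markers of monocytes and border macrophages held 0.0923% and 0.241% of counts in untreated Cx3cr1 libraries, against at most 0.000109% in the cortical ones. Of those tested 7 of 7 were called higher, but they passed the filter only through the Cx3cr1 libraries. These calls are therefore not read as support. The part of these markers in the result was not tested.

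Complex III had the lowest median in the untreated libraries, an order that the PBS libraries below did not keep. It carries the Rieske iron-sulphur protein Uqcrfs1, the core proteins Uqcrc1 and Uqcrc2 and small subunits such as Uqcrb, and 7 of its 8 members were lower, with a median log2 difference of -1.94. Uqcrb, which stabilises the ubiquinone-binding part of the complex, had 225.2 and 110.1 normalised CPM (counts scaled to a common library size) in untreated Cx3cr1 libraries, against 713 and 732 in Gfap, 477 and 464 in Camk2a, and 620 and 764 in Gad2 libraries. Both Cx3cr1 values lay below all 6 cortical values, and the log2 difference was -1.88 (SE 0.30, adjusted p = 4.1e-05). Uqcr11, a small subunit, was counted 1 time in 288415 Cx3cr1 counts and 304 times in 7970440 cortical counts, a ratio of 0.0909 (95% counting interval 0.00229 to 0.51).

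Ndufa4, a complex IV subunit that helps hold the assembled enzyme together, had 545 and 139 normalised CPM in untreated Cx3cr1 libraries, against 1685 and 1302 in Gfap, 1921 and 1343 in Camk2a, and 4202 and 3204 in Gad2 libraries. The log2 difference was -2.60 (SE 0.40, adjusted p = 2.7e-05), although the 2 Cx3cr1 libraries themselves lay far apart. Atp5b, the catalytic beta subunit of ATP synthase, had 131 and 103 normalised CPM there, against 322 and 294 in Gfap, 246 and 262 in Camk2a, and 415 and 518 in Gad2 libraries, a log2 difference of -1.51 (SE 0.29). In complex I, 4 of 7 core subunits and 15 of 27 accessory subunits tested were lower; Ndufs1, an iron-sulphur subunit, changed by -1.49, and the accessory subunit Ndufb6 by -2.29. In complex IV 6 of 13 tested were lower, Cox6a1 (-1.81), Cox6c (-1.81) and Cox7a2 (-1.87) among them, and in complex V 5 of 13.

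A small set ran the other way. Ndufa2, an accessory subunit of complex I, had 116 and 103 normalised CPM in untreated Cx3cr1 libraries, against 53.4 and 40.5 in Gfap, 13.52 and 13.02 in Camk2a, and 21.5 and 21.7 in Gad2 libraries, a log2 difference of 2.21 (SE 0.35). Its interval overlaps Tmco6 in RefSeq, and reads of overlapping genes may have been assigned to either. Sdhd, a membrane anchor of complex II, changed by 1.22, Cox6b1 of complex IV by 1.45, and Atp5h, the stalk subunit d of ATP synthase, by 2.09, each resting on few reads: Sdhd had 16 and 29 counts, Cox6b1 25 and 48, and Atp5h 12 and 31 in the untreated Cx3cr1 libraries. None of Sdhd, Cox6b1 and Atp5h passed the threshold without untreated replicate 2, where their log2 differences were 0.66, 0.83 and 1.17. Cox7a2l, a factor in the joining of complexes III and IV into supercomplexes, had 661 and 338 normalised CPM in untreated Cx3cr1 libraries, against 443 and 437 in Gfap, 213 and 241 in Camk2a, and 298 and 373 in Gad2 libraries. Its log2 difference of 0.63 (adjusted p = 0.042) turned to -0.09 without untreated replicate 1.

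The PBS libraries of the same line served as another reading of Cx3cr1 cells, compared after the values above had been seen. They were set against the same cortical libraries, so the comparisons share that side and are not independent. Region still goes with cell type. With all 3 PBS libraries in place of the untreated ones, 45 members were lower and 3 higher than in cortex, among 75 tested, and 36 of the 38 members lower in untreated libraries were lower again. The exceptions were Ndufa7 and Uqcr11. By complex the medians were -1.199 for the complex I core, -1.02 for complex IV, -0.95 for complex III, -0.91 for complex V, -0.70 for the accessory subunits of complex I and -0.05 for complex II, so complex III was no longer lowest. Ndufa4 differed by -1.64, Uqcrb by -1.03 and Atp5b by -1.22. Ndufa2 (1.66) and Cox7a2l (1.38) were higher again, joined by Atp5e (1.53), while Sdhd, Cox6b1 and Atp5h missed the threshold at 0.52, 0.07 and 0.70. Without PBS replicate 3, 41 were lower and 4 higher, and Ndufa4 differed by -2.00. With the untreated libraries 49.8% of all genes were called. That share is not given for either PBS fit, so these counts are not read as particular to respiratory chain genes.

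**Figure D2:**
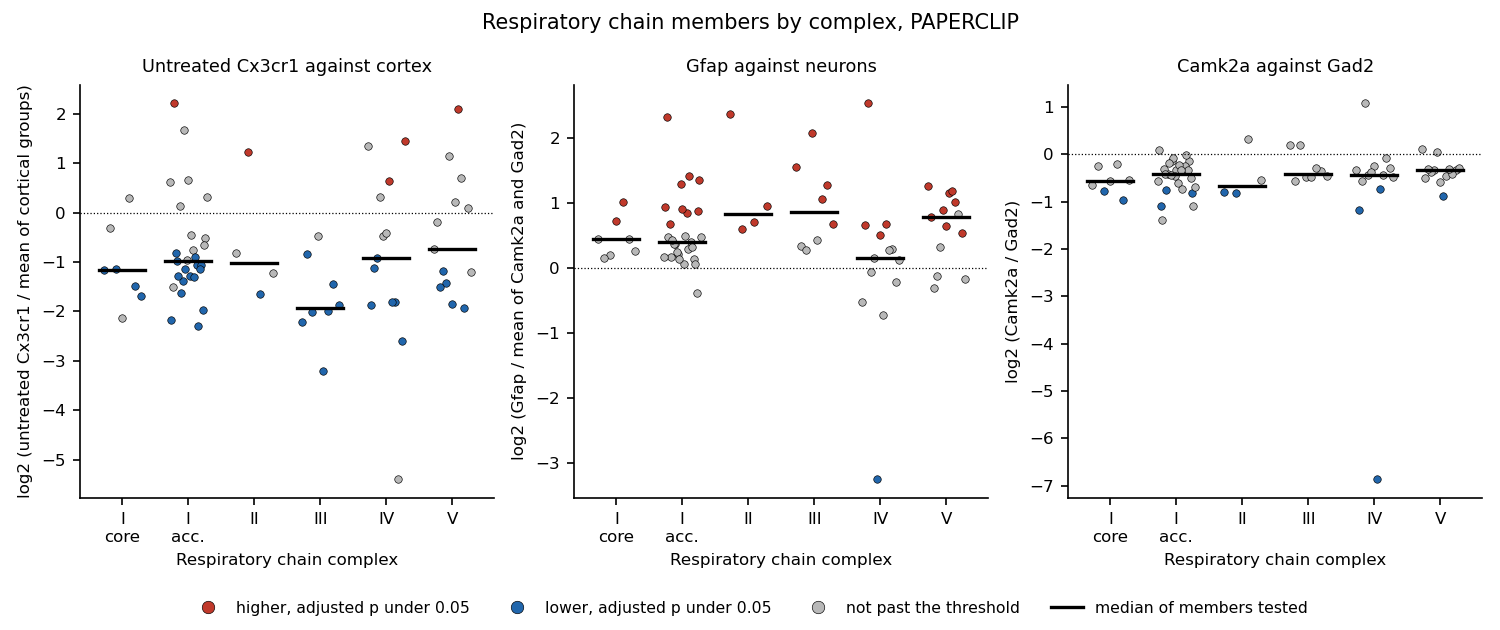
Log2 difference of each member tested (vertical axis, 1 point per gene) by complex (horizontal axis) in 3 PAPERCLIP comparisons; red and blue points passed an adjusted p of 0.05, black lines are medians. Complex III has the lowest median in untreated Cx3cr1 against cortex (-1.94), though not with PBS libraries in their place (-0.95), most points lie above 0 in Gfap against neurons, and Cox6a2 stands alone at -6.85 in Camk2a against Gad2.

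In astrocyte-tagged cortex the members that differed were nearly all higher than in neurons. Against the mean of Camk2a and Gad2 libraries, 32 of 73 members tested were higher in Gfap libraries and 1 was lower, with a median log2 difference of 0.45 (all genes 0.00); 60.5% of all 9421 genes were called, 2945 higher and 2757 lower, so that the share of members called was below that of all genes while their direction was more one-sided. All 4 subunits of complex II, which is also an enzyme of the citric acid cycle, were higher, with 5 of 8 in complex III, 8 of 13 in complex V, 2 of 7 core and 9 of 27 accessory subunits of complex I, and 4 of 13 in complex IV. With libraries scaled to total counts, which shifts the median of all genes to -0.21, the members split 20 higher and 4 lower.

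Sdhc, a membrane anchor of complex II, had 169 and 140 normalised CPM in Gfap libraries, against 17.9 and 31.04 in Camk2a and 23.1 and 45.4 in Gad2 libraries, a log2 difference of 2.37 (SE 0.25). Both astrocyte values lay far above all 4 neuronal values. Uqcrfs1, the Rieske protein of complex III, had 579.9 and 574 normalised CPM in Gfap libraries, against 103 and 127.7 in Camk2a and 166 and 154 in Gad2 libraries, a log2 difference of 2.09 (SE 0.19). These replicates differed little, and the gap between groups was much larger than the spread. The other complex III subunits called were Uqcr11 (1.56), Uqcr10 (1.29), Uqcrh (1.07) and Uqcrq (0.67); Uqcrb (0.34), Uqcrc2 (0.43) and Uqcrc1 (0.28) did not pass. Ndufb11 was also higher (2.32), though it had no more than 20.2 normalised CPM in a Gfap library and its interval overlaps Rbm10. The member lower in Gfap libraries than in the mean of the neuron lines was Cox6a2 (-3.24). It had 0 and 2 counts in Gfap and 3 and 0 in Camk2a libraries, against 60 and 106 in Gad2 libraries. The difference therefore rests on the Gad2 libraries and not on neurons in general. Without Camk2a replicate 1 it was -1.92.

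In complex IV, Cox4i1 (0.51), Cox7c (0.68), Cox7a2l (0.67) and Cox7a1 were higher. Under 16 alternative settings Cox4i1 (0.28 to 0.66) missed the threshold in 11 and Cox7a2l (0.44 to 0.74) in 7, each keeping its sign. Cox6a1 had 1770 and 1590 normalised CPM in Gfap libraries, against 2122 and 2005 in Camk2a and 2760 and 2858 in Gad2 libraries. Both Gfap values lay below all 4 neuronal values, and the difference did not pass (-0.52, adjusted p = 0.10). Ndufa4 (-0.72) and Atp5b (-0.16) also had values below 0 without passing. Cox7a1, the heart and muscle form of subunit VIIa, had 17.3 and 15.3 normalised CPM in Gfap libraries, against 3.38 and 4.51 in Camk2a and 1.54 and 1.97 in Gad2 libraries, a log2 difference of 2.54 (SE 0.49). Its counts were 12 and 25 in Gfap libraries, 7 and 9 in Camk2a, and 1 and 2 in Gad2 libraries. Cox7a1 passed the filter on low counts only through the Gfap libraries, where it is high. Its call, included in the counts of members above, is therefore not read as support. Oligodendrocyte markers were higher in Gfap libraries too, 8 of 8 tested, at the shares given above. Without Gfap replicate 2, which held the larger share, 25 members were higher and 1 lower.

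Between the neuron types the members that differed were all lower in Camk2a libraries. Of 73 members tested, 11 were lower in Camk2a than in Gad2 libraries and none was higher, with 66 of 73 values below 0 and a median of -0.42, against 0.03 over all genes; 21.2% of all 9421 genes were called, 1097 higher and 904 lower, a larger share than among the members. Markers of other cells differed too: 4 of 12 microglia markers were lower, at 0.00444% to 0.0054% of counts in Camk2a and 0.0142% to 0.0157% in Gad2 libraries, and 4 of 11 pan-neuronal markers tested were higher, at 1.34% to 1.39% in Camk2a and 1.43% to 1.45% in Gad2 libraries. Their part in the result was not tested. The 11 were Ndufv2, Ndufs1, Ndufa1, Ndufa11 and Ndufa12 of complex I, Sdha and Sdhd of complex II, Cox5a, Cox6a2 and Ndufa4 of complex IV, and Atp5b of complex V. Leaving out a library changed this count widely. It fell without any Camk2a or Gad2 library and rose without either untreated Cx3cr1 library. The Cx3cr1 libraries are not part of this contrast. Each such fit repeated the filter, the scaling, the estimate of spread and the adjustment, with 1 library left in the reduced group.

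Ndufa4 had 1921 and 1343 normalised CPM in Camk2a libraries, against 4202 and 3204 in Gad2 libraries, a log2 difference of -1.18 (SE 0.39, adjusted p = 0.034). Ndufv2, an iron-sulphur subunit of the NADH-oxidising arm, had 156 and 172 normalised CPM in Camk2a libraries, against 299.8 and 334 in Gad2 libraries, a log2 difference of -0.95 (SE 0.23). Sdha, the flavoprotein of complex II, had 209 and 229 normalised CPM in Camk2a libraries, against 366 and 406 in Gad2 libraries (-0.82, SE 0.24). Atp5b had 246 and 262 normalised CPM in Camk2a libraries, against 415 and 518 in Gad2 libraries (-0.88, SE 0.23). In each of these genes both Camk2a values lay below both Gad2 values. Sdhb, the iron-sulphur subunit of complex II, was an exception in direction without passing (0.31, adjusted p = 0.38).

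Cox6a2 had the largest difference of the members between the neuron types. This muscle form of subunit VIa lies on chromosome 7 at 128205435 to 128206366 (GRCm38), and overlaps Itgad, so counts there may belong to either gene. It had 3 and 0 counts in Camk2a, 0 and 2 in Gfap, and 2 and 1 in untreated Cx3cr1 libraries, against 60 and 106 in Gad2 libraries. Per count sequenced, Camk2a libraries held 0.00744 times the Gad2 level (95% counting interval 0.00152 to 0.0221), Gfap libraries 0.00747 times (0.000897 to 0.0274), and untreated Cx3cr1 libraries 0.0991 times (0.0202 to 0.295). The fitted log2 difference between Camk2a and Gad2 was -6.85 (SE 0.50). Cox6a2 passed the filter on low counts only through the Gad2 libraries, where it is high, so its p-value is not read as support. In Cx3cr1 libraries it had 19.2, 5.89 and 14.1 CPM after LPS, against 10.9, 7.51 and 0 CPM after PBS, from 20, 4 and 12 counts against 3, 2 and 0, too few for the test. The paralog Cox6a1 differed by -0.45 (SE 0.30, adjusted p = 0.34) between Camk2a and Gad2 libraries and was read in each library.

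**Figure D3:**
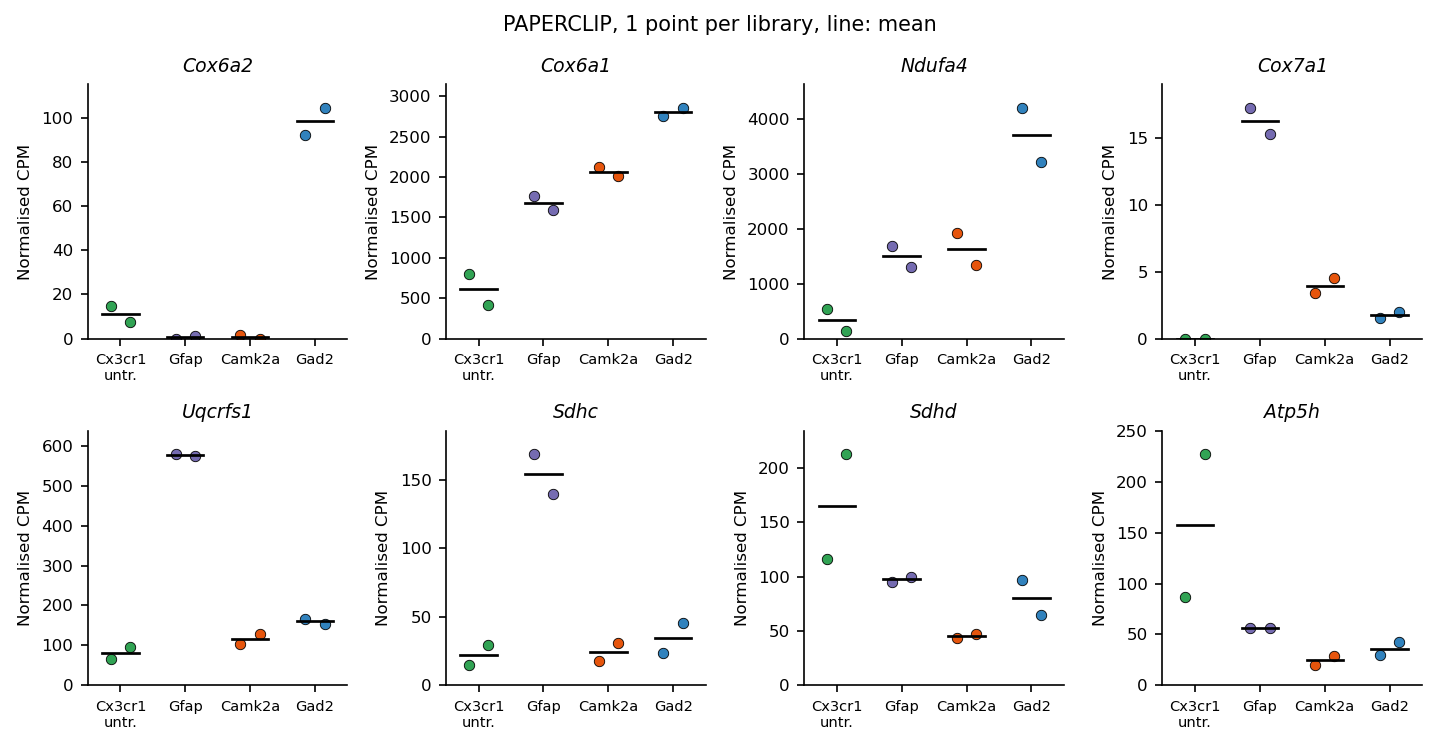
Normalised CPM (vertical axis, each panel on its own scale from 0) of 8 members in the untreated Cx3cr1 (Cx3cr1 untr.), Gfap, Camk2a and Gad2 libraries, with 1 point per library and a line at the mean. Cox6a2 is high in both Gad2 libraries only, Cox7a1, Uqcrfs1 and Sdhc are highest in both Gfap libraries, and Sdhd and Atp5h differ widely between the untreated Cx3cr1 libraries.

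In microglia isolated after LPS, the members that differed were all higher than after PBS. Of 73 members tested, 21 were higher and none was lower, 65 of 73 values lay above 0, and the median log2 difference was 0.36, against -0.02 over all 10267 genes tested, of which 26.4% were called, 1634 higher and 1072 lower. The share of members called was close to that of all genes. Complex IV gave 6 of 12, complex V 6 of 14, complex III 3 of 8, complex II 2 of 4 and the accessory subunits of complex I 4 of 27. None of the 7 core subunits of complex I passed, and their median was 0.09. The count was 12 without LPS replicate 1, 11 without LPS replicate 2 and 10 by DESeq2.

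Cox7a2l had 126, 86.8 and 106 normalised CPM in LPS microglia, against 51.9, 53.6 and 49.0 in PBS microglia, a log2 difference of 1.04 (SE 0.15, adjusted p = 0.00028). Cox4i1, which wraps the catalytic core of complex IV, had 192, 194 and 170.02 normalised CPM in LPS microglia, against 120.1, 106 and 83.8 in PBS microglia, a difference of 0.85 (SE 0.13). Cox8a, a small complex IV subunit, had 105, 115 and 106 normalised CPM in LPS microglia, against 66.7, 62.1 and 46.2 in PBS microglia, a difference of 0.90 (SE 0.14). For these 3 genes no LPS library overlapped a PBS library.

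Ndufa6, an accessory subunit of complex I, had 49.3, 53.2 and 52.8 normalised CPM in LPS microglia, against 30.2, 29.5 and 23.9 in PBS microglia, a difference of 0.90 (SE 0.15). Uqcrh, the hinge protein of complex III, had 104, 73.6 and 81.2 normalised CPM in LPS microglia, against 58.3, 41.2 and 37.0 in PBS microglia (0.90, SE 0.19); pseudogenes named after it are annotated, and reads may be shared with them. Atp5j2, subunit f of ATP synthase, had 50.7, 55.1 and 55.3 normalised CPM in LPS microglia, against 35.6, 27.2 and 27.2 in PBS microglia (0.83, SE 0.16). Again the groups stood apart in each gene. Ndufa3 (0.96), Atp5e (0.89), Atp5g2 (1.03), Cox5a (0.79), Sdhb (0.61) and Atp5c1 (0.61) were also higher.

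Several core and catalytic subunits did not pass. Ndufs1 had 51.4, 65.8 and 66.2 normalised CPM in LPS microglia, against 76.1, 72.2 and 49.0 in PBS microglia, a difference of -0.10 (SE 0.17). Ndufs7, next to the ubiquinone site, had 25.01, 30.2 and 27.6 normalised CPM in LPS microglia, against 31.1, 37.3 and 29.4 normalised CPM in PBS microglia (-0.22, SE 0.17). In both genes the groups overlapped. Atp5b differed by 0.17 (SE 0.12), Atp5a1 by 0.14 (SE 0.12), Sdha by 0.18 (SE 0.10), Uqcrb by 0.27 (SE 0.22) and Ndufa4 by 0.13 (SE 0.24), none past the threshold.

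Other genes of mitochondrial and sugar metabolism were read in the same libraries. Of 20 glycolysis genes tested 10 were higher and 1, Hk1, was lower, with Pkm at 0.89 and Tpi1 at 0.81. Of 16 citric acid cycle genes 1 was higher, citrate synthase (Cs, 0.41). The phosphate carrier Slc25a3 (0.67), the ADP/ATP carrier Slc25a5 (0.45) and the ATP synthase inhibitor Atpif1 (0.79) were higher, while none of 26 assembly factors passed. Of 7 subunits encoded in mitochondrial DNA that were tested, 1 was higher, mt-Co1 (0.63). Among 9 regulators, Ppargc1b (1.25) was higher, and Tfam (-0.61) and Pprc1 (-0.68) were lower. Marker genes moved as well: 4 of 4 erythroid markers tested were lower, at 0.000656% to 0.00168% of counts in LPS and 0.0113% to 0.0128% in PBS microglia, and hepatocyte markers, nearly all of whose counts were Ttr, held 0.144% to 0.185% in LPS and 0.175% to 0.769% in PBS microglia. Of the 12 microglia markers 6 were higher and 4 lower. Of 8 monocyte and border macrophage markers 3 were higher (Ly6c2, Ccr2 and Ms4a7) and 2 lower (Mrc1 and Lyve1), at 0.0585% to 0.0686% of counts in LPS and 0.0646% to 0.0934% in PBS microglia. The 5 neutrophil markers tested by edgeR had a median log2 difference of 0.75 and none passed, S100a8 alone having an unadjusted p under 0.05. They held 0.0797%, 0.0709% and 0.0642% in LPS microglia, against 0.0225%, 0.0108% and 0.109% in PBS microglia, PBS replicate 3 being the highest. Of 5 endothelial markers 1, Flt1, was lower, and they held 0.021% to 0.0458% in LPS and 0.0382% to 0.0931% in PBS microglia. Without PBS replicate 3, 16 members were higher. The part of these markers in the result was not tested.

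**Figure D4:**
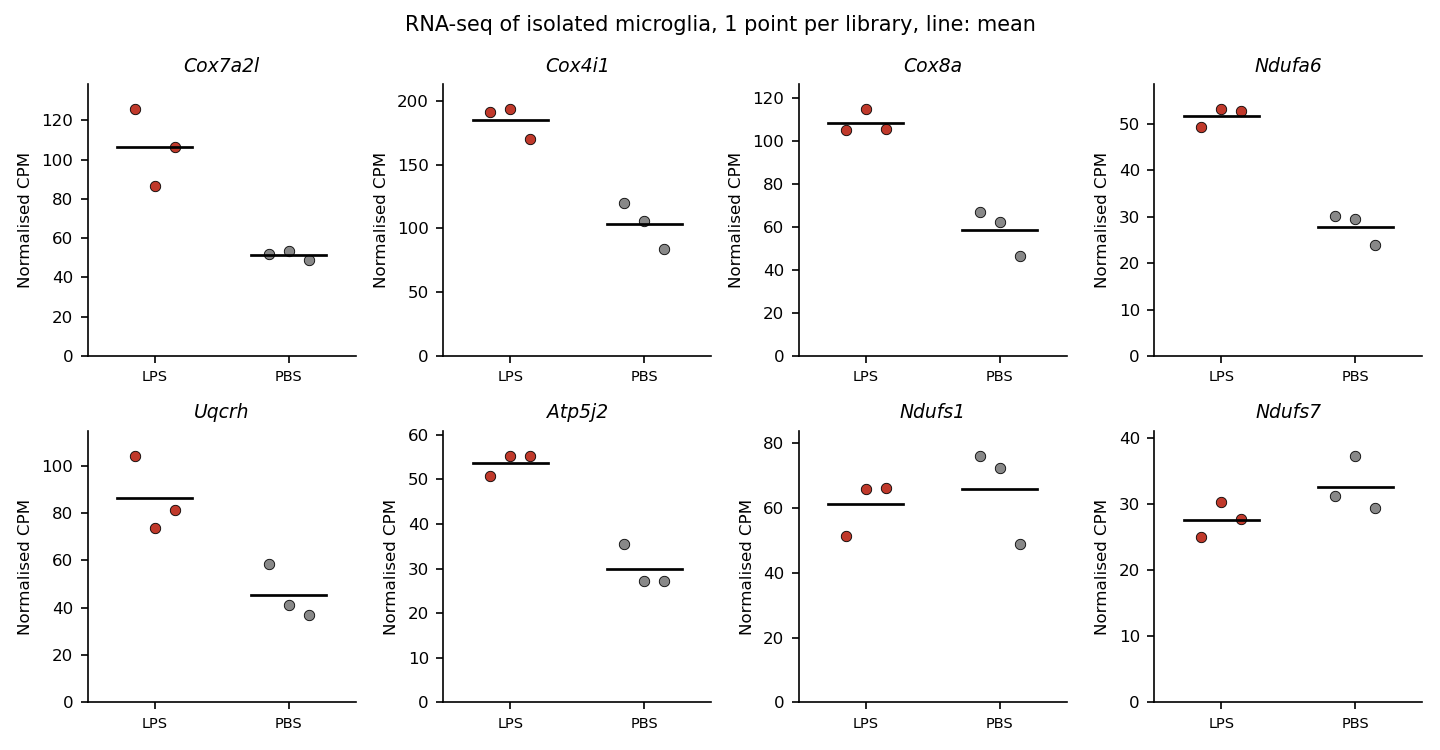
Normalised CPM (vertical axis, each panel on its own scale from 0) of 8 members in LPS and PBS microglia by RNA-seq, with 1 point per library and a line at the mean. The LPS and PBS points are apart for the 6 accessory or small subunits shown and overlap for the complex I core subunits Ndufs1 and Ndufs7.

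Promoters are shown for 4 members that were higher after LPS, 3 with and 1 without a motif, and for Cox6a1, which was read in every library. Each window runs from 250 bases before to 50 bases after the annotated start (RefSeq, GRCm38.p6), written 5′ to 3′ on the gene's strand. Capitals mark exact matches, on either strand, to 3 short motifs of factors known to act on respiratory genes: GCATGCGC for NRF1, CCGGAAG for the ETS factors that include GABP, and AAGATGGC for YY1. Matches of different motifs did not overlap in any member's window.
Cox6a1 (chr5:115348909-115349208, minus strand): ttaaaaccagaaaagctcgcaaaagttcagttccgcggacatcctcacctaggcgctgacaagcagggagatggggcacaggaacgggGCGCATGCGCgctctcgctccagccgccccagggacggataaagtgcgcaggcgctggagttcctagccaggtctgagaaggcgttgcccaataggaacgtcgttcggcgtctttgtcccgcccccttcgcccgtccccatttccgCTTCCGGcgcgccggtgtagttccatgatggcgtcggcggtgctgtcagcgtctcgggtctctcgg
Cox8a (chr19:7217567-7217866, minus strand): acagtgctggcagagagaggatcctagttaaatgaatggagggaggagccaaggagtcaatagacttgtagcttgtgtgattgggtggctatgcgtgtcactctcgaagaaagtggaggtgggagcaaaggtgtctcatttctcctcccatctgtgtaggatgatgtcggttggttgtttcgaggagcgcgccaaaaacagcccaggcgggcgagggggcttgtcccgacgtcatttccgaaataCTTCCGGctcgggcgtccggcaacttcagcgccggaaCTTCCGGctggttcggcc
Sdhb (chr4:140961021-140961320, plus strand): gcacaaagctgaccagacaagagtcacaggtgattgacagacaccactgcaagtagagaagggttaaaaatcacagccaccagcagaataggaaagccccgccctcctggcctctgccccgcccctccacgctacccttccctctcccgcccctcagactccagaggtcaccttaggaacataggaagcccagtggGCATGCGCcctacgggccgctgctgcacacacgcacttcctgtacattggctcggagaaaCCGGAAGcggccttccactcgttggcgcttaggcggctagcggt
Atp5j2 (chr5:145191492-145191791, minus strand): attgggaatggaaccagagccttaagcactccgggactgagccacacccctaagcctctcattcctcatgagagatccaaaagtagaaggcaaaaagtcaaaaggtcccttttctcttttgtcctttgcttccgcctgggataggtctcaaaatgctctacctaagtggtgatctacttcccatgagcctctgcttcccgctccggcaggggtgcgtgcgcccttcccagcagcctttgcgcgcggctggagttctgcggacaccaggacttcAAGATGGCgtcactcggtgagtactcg
Cox7a2l (chr17:83514284-83514583, minus strand): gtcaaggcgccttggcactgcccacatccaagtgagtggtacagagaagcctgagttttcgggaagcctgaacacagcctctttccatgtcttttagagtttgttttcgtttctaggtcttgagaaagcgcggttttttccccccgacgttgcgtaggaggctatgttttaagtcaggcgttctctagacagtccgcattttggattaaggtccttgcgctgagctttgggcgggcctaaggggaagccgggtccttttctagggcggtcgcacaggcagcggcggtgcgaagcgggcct

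The Cox6a1 window holds overlapping NRF1 matches on both strands and 1 ETS match, Cox8a holds 2 ETS matches, Sdhb 1 NRF1 and 1 ETS match, and Atp5j2 1 YY1 match just after the start. Cox7a2l, with the largest change after LPS, holds none of these letters. Windows were found for 70 of the 85 members, and 31 of them (44.3%) held at least 1 motif, against 14.9% of 27025 genes: NRF1 was in 14.3% of members and 3.05% of all genes, the ETS core in 22.9% and 9.93%, and YY1 in 15.7% and 3.19%. Members also had a higher GC content, with a median of 57.8% against 52.7%, and more CG pairs in the window, with a median of 19 against 7. The NRF1 and ETS letters each hold a CG pair. The part of base content in the motif shares was not tested. Among members higher after LPS, 11 of 19 with a window held a motif, and among those tested and not called 19 of 43 did. A match describes letters and is neither a binding site nor a cause.

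In Cx3cr1-tagged cells read by PAPERCLIP, no member passed the threshold after LPS. Of 61 members tested none was called by edgeR or by DESeq2, 3 had an unadjusted p under 0.05 by edgeR and 1 by DESeq2, and 3.53% of all 5692 genes were called. The median log2 difference of the members was 0.18, against -0.01 over all genes, with 45 of 61 above 0 and values between -0.54 and 0.70. No member was called without replicate 3 of both groups or with any single library left out. With the replicate number as a block no member was called either, though 258 genes were higher and 165 lower, against 156 and 45 without it.

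The 3 with the smallest p were Ndufc1, Atp5c1 and Atp5e. Ndufc1, an accessory subunit of complex I, had 164, 123 and 153 normalised CPM after LPS, against 71.6, 105 and 96.0 after PBS, a difference of 0.70 (SE 0.24, adjusted p = 0.15). Atp5c1, the central gamma stalk of ATP synthase, had 122, 134 and 176 normalised CPM after LPS, against 75.4, 125 and 80.5 after PBS (0.63, SE 0.26, adjusted p = 0.25). Atp5e had 163, 83.8 and 163 normalised CPM after LPS, against 82.9, 92.9 and 86.7 after PBS (0.66, SE 0.28, adjusted p = 0.28). Groups overlapped for Atp5e and stood apart for Ndufc1, while Atp5c1 had its lowest LPS library just under its highest PBS library. Cox7a2l differed by 0.18 (SE 0.21), Cox4i1 by 0.40 (SE 0.23) and Ndufa6 by 0.29 (SE 0.24). Ndufa4 had 516, 283 and 531 normalised CPM after LPS, against 701, 262 and 957 after PBS, the highest being PBS replicate 3 (-0.53, SE 0.36).

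Of the 21 members higher in RNA-seq, 18 were tested in PAPERCLIP, and 17 of these had values above 0 there, with a median of 0.25. Among all 61 members tested in PAPERCLIP, 45 were above 0. No such count over all genes is given, so the 17 are not read as particular to the members. The test of the difference between the LPS responses, RNA-seq minus PAPERCLIP, called 0 of 76 members by edgeR (9 at an unadjusted p under 0.05) and 0 by DESeq2 (also 9), and 0.00983% of 10170 genes. Whether the responses differ was therefore not resolved for any member: for Cox7a2l the difference was 0.79 (SE 0.27, adjusted p = 0.37) and for Cox8a 1.64 (SE 0.70, adjusted p = 0.51). The mice differ in genotype between the assays, and the dose in PAPERCLIP is not given.

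**Figure D5:**
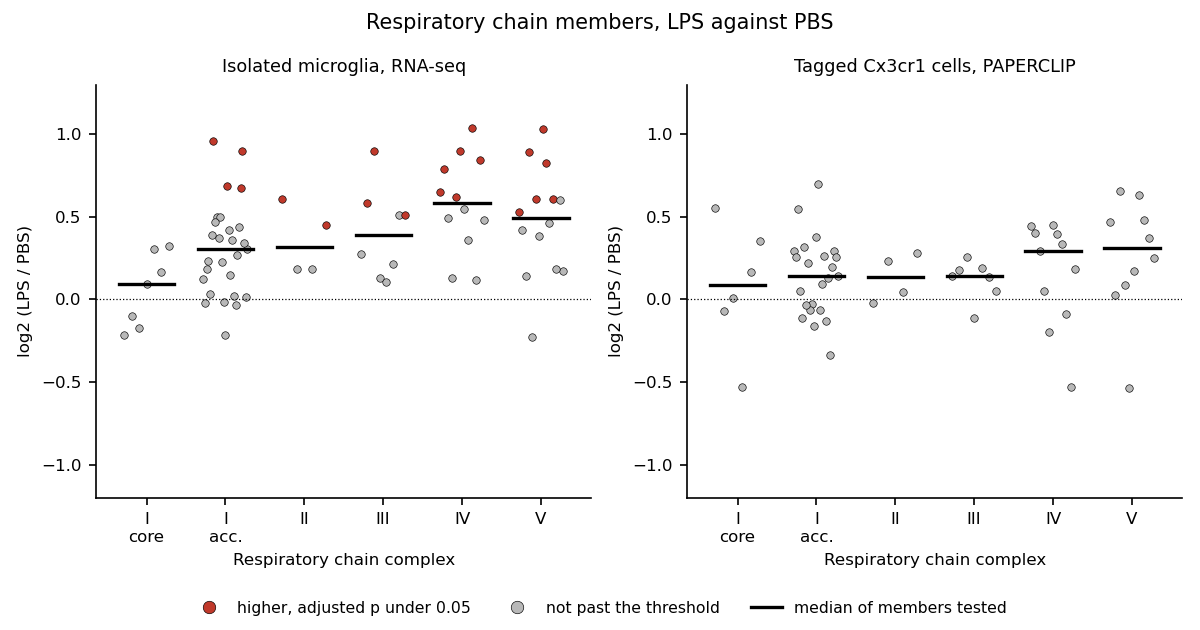
Log2 of LPS over PBS (vertical axis, 1 point per member tested) by complex (horizontal axis) in RNA-seq of isolated microglia and in PAPERCLIP of Cx3cr1-tagged cells; red points passed an adjusted p of 0.05 and black lines are medians. In RNA-seq 21 members passed, none of them a core subunit of complex I, and in PAPERCLIP none passed.

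Some members were read well by only 1 assay. Cox8a had at most 14.99 CPM in any tagged brain library and up to 110.2 in microglial RNA-seq, and Uqcrc1 at most 17.7 and up to 107. Ndufb4 went the other way, with up to 459 CPM in tagged brain and at most 2.81 in microglial RNA-seq, where it had 3, 6 and 2 counts after LPS, against 0, 0 and 1 after PBS. Its difference in LPS response, 3.02 (SE 0.86, adjusted p = 0.23), rests on those few reads. Cox8c, the testis form of subunit VIII, was at 0 in all 24 libraries. Members too low for the tests, 12 in the cell type fit, 24 in the PAPERCLIP LPS fit and 12 in the RNA-seq fit, failed the filter on low counts, and no call was made for them.

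The single liver library read 68 of the 85 members at least 1 time, with 244 counts of Ndufa4, 107 of Cox6a1, 32 of Atp5b and 34 of Uqcrb, and 0 of Cox6a2. In Ptbp2-KO cortex Atp5b had 675 to 719 CPM and Ndufa4 106 to 109.7 CPM over the 3 libraries. Cox6a2 had 4, 1 and 3 counts there. Neither group has a partner to compare it with.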

How the data were processed

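The authors deposited whole-number counts per gene and library, and no value was rescaled before testing. The submitters' processing notes name cutadapt, Novoalign, STAR and build mm10, without tool versions. Per the labels' protocols, PAPERCLIP linkers carry a 7-base random barcode, microglial RNA was poly(A)-selected and Ptbp2-KO RNA was ribosome-depleted. How barcodes were collapsed, how reads were assigned and whether strand was used is not given in the sources used here, so counts of overlapping genes (27 members), of members with named pseudogenes (9) and of close paralogs are uncertain.

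Groups came from sample titles. PAPERCLIP symbols were joined to RNA-seq identifiers by a gene name table: 22421 symbols matched directly and 696 by older symbols. Tests were edgeR 4.0.16 (R 4.3.3) quasi-likelihood fits on genes passing filterByExpr, with TMM factors. P-values were adjusted by Benjamini-Hochberg across every gene in the fit and called at 0.05. Each adjusted p comes from these fits. The 3 cell type comparisons share a fit of 8 libraries; each LPS comparison used its 6 and the difference in response 12. SE is that of the log2 difference, and normalised CPM use TMM-scaled totals. The fits were tested on simulated data. Labels do not say that PAPERCLIP or microglial replicates came from separate animals, and p-values then cover only the variation among these samples, which may be technical. Replicates of a pair differed by more than sampling noise.

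Same-numbered LPS and PBS PAPERCLIP libraries correlated at 0.130, 0.240 and 0.188 in their deviations from group means. Numbers were therefore taken to pair them, from the data alone. The reported tests were unpaired, with a replicate block as an alternative. In RNA-seq the same-numbered values were also positive, and whether numbers pair those libraries was not settled. In the cell type fit numbers were not taken as pairs. Alternatives were RLE and total-count scaling, DESeq2 1.42.0, no filter, 5 CPM, a replicate block, a file-name prefix term, thinning, all 14 tagged libraries, each library left out, and, added after the data were seen, PBS in place of untreated Cx3cr1 libraries. Members and lists were chosen with earlier results of these data known. The rule for named members took Ndufa4, Uqcrb, Atp5b, the 2 called members with the smallest p and the member with the largest p per complex, called members against the majority, and paralogs; others were chosen after their values were seen.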

Additional observations from a re-analysis of the deposited data

How the results depend on the processing

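Counts of members called stayed within 1.5 times of those reported under RLE scaling, total counts, either filter and the replicate block (12, 35, 44, 0, 24 and 0 for Camk2a against Gad2, Gfap against neurons, Cx3cr1 against cortex, LPS in PAPERCLIP, LPS in RNA-seq and the difference in response), except as follows. Thinned to the shallowest library, Camk2a against Gad2 gave 2, Gfap against neurons 14 and untreated Cx3cr1 against cortex 24, so depth limits these counts. DESeq2 gave 10 for LPS in RNA-seq. Leaving out each library gave 1 to 19 for Camk2a against Gad2, 22 to 43 for Gfap against neurons, 36 to 46 for untreated Cx3cr1 against cortex, 0 to 0 for LPS in PAPERCLIP, 11 to 25 for LPS in RNA-seq and 0 to 0 for the difference in response. Cox7a2l in untreated Cx3cr1 against cortex reversed to -0.095 without untreated replicate 1 (adjusted p = 0.80, edgeR) and was 0.97 without untreated replicate 2. The median difference in LPS response over the members, 0.12, ranged between -0.106 and 0.237 with a library left out, reversing without Cx3cr1 PBS replicate 3 (-0.106) and without Cx3cr1 LPS replicate 2 (-0.077); the cause was not tested. Same-numbered RNA-seq libraries correlated at 0.114, 0.0977 and 0.193 in their deviations, and unlike pairs at -0.169 to 0.108. Whether numbers pair the RNA-seq libraries was therefore not settled. Same-numbered cell type libraries correlated at 0.0038 to 0.0665 and were not taken as pairs. The block changed no member count by over 1.5 times.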
